A study of Mus musculus with 48 samples.

Results

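Chromatin accessibility was compared between progenitor exhausted (Tprog) and terminally exhausted (Tterm) CD8 T cells that carried a guide RNA against Zfp219, a zinc finger gene, and had been recovered from melanomas in aged mice. The comparison used 4 of the 48 libraries of the series, 2 per state, and all 53868 peaks measured in them. Open DNA was read out with ATAC-seq: a transposase (Tn5) inserts adapters where chromatin is accessible, so that more reads in a peak mean a more accessible site. The cells were Cas9-expressing, CD45.1-marked OT-1 CD8 T cells, whose T cell receptor recognises an ovalbumin peptide. They received a lentiviral vector with the guide and an ametrine reporter, were transferred into the hosts 1 day before B16-OVA cells (a mouse melanoma line that makes ovalbumin) were injected, and were sorted from the tumours on day 15.

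Tprog cells were gated as Slamf6+Tim-3- and Tterm cells as Slamf6-Tim-3+, so the genes for both sort markers, Slamf6 and Havcr2 (Tim-3), were used to make the groups and their accessibility is no finding between them. The same tumours gave Slamf6+Tim-3+ cells (Ttran, labelled transitory and effector-like) and Slamf6-Tim-3- cells (Ttad, labelled age-associated dysfunctional), with 2 libraries each. The comparators were aged-host Tprog and Tterm cells with the control guide that the labels call OTC, those with a guide against Dusp5 (2 libraries per state each), and young-host cells with the Zfp219 guide (2 Tprog and 3 Tterm libraries). Host age is read from the letters A and Y in the library names. All of these groups share the Cas9 background, the transferred receptor, the tumour and the day. Each library pooled cells from independent mice, with 5000 to 50000 cells per combination of guide and state, so differences between single mice cannot be seen. The guide is named Zfp219KO in the labels, but the edit itself was not measured here.

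Exhausted CD8 T cells form a hierarchy in tumours and chronic infection. The progenitor cells keep a memory-like programme under the transcription factor TCF-1 (encoded by Tcf7), renew themselves and give rise to more differentiated cells. Terminally exhausted cells lose that programme, carry several inhibitory receptors and have stable changes in chromatin. Granzymes and perforin, stored in cytotoxic granules, and chemokines such as CCL3 to CCL5 belong to the effector programme.

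The 4 libraries held 9160914 and 12792515 reads in peaks for Tprog and 15249285 and 16159054 for Tterm, against 5638413 to 29942755 over the whole series. Values below are normalised read counts, that is, reads in a peak divided by a depth factor of the library. The replicates correlated across peaks at r = 0.960 (Tprog) and 0.974 (Tterm) on the log2 scale, and libraries of different states at 0.920 to 0.928, with peaks not being independent replicates. Both Tprog libraries were shallower than both Tterm libraries, and with every library thinned to the smallest total the number of called peaks was 7795 in place of 10103. Marker sites of other cells were not equal between the states: over the 4 peaks in the bodies of the melanoma genes Mitf, Pmel and Mlana the sum was 1065 to 1160 in Tprog and 719.5 to 873.7 in Tterm, while Tyr, Tyrp1 and Dct had no peak. The 5 peaks of the B cell gene Pax5 summed to 427.9 to 484.3 in Tprog and 298.8 to 318.8 in Tterm, and Ms4a1, Cd79a and Cd79b had no peak. Sums over 8 myeloid peaks (838.8 to 868 against 945.3 to 1004), 2 NK cell peaks (1956 to 2162 against 2341 to 2465) and 4 CD4 T cell peaks (1153 to 1214 against 1537 to 1574) were lower in Tprog, with no peak at Csf1r, Lyz2, Adgre1 or Foxp3. These sums took peaks in gene bodies only. Of all 10 peaks assigned to the 3 NK cell genes, 2 (20%) were called higher and 1 (10%) lower in Tprog. Their median log2 difference was 0.27, and the shares over all peaks were 8.38% and 10.4%. The 33 peaks of 8 CD8 T cell genes summed to 14599 to 15123 in Tprog and 14949 to 15050 in Tterm. The part of these other markers in the results was not tested.

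For orientation, 250 bases upstream of the start of 7 genes whose promoter peaks separated the states are shown, since the granzymes among them carry the steepest falls. They come from RefSeq on GRCm38.p6 (mm10), run 5′ to 3′ on the gene's own strand, and have in capitals each match, on either strand, to AP-1 (TGANTCA), RUNX (TGTGGT), TCF/LEF (CTTTGAA or CTTTGTT), NFAT (GGAAAA), NR4A (AAGGTCA) or the interferon-stimulated response element; where capitals run on without a break, matches of NFAT and TCF/LEF overlap.
Il2, chr3:37125955-37126204, minus strand: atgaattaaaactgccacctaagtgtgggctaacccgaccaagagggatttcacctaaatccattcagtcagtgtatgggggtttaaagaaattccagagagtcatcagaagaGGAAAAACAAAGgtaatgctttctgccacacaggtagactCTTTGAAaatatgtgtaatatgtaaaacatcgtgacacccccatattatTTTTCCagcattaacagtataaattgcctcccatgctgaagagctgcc
Havcr2, chr11:46454681-46454930, plus strand: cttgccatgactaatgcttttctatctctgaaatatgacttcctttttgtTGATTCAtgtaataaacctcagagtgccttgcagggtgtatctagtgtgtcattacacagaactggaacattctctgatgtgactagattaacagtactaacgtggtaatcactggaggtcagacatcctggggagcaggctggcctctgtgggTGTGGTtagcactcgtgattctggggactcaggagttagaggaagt
Gzmb, chr14:56262335-56262584, minus strand: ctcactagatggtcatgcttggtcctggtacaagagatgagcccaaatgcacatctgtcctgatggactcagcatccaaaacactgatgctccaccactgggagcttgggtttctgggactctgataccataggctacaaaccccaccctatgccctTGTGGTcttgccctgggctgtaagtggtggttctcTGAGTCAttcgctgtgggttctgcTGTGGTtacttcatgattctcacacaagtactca
Gzmc, chr14:56234658-56234907, minus strand: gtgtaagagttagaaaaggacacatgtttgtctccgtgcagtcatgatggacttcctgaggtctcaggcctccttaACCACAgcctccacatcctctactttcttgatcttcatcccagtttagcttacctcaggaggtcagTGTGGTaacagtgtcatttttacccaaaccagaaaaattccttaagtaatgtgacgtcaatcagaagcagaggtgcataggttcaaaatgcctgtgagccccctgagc
Gzmd, chr14:56132594-56132843, minus strand: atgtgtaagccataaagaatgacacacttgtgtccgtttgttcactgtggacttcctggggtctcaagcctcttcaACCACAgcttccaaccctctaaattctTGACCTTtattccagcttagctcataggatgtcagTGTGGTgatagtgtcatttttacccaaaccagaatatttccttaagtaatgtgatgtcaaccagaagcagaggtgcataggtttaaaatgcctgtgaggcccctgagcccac
Gzme, chr14:56120626-56120875, minus strand: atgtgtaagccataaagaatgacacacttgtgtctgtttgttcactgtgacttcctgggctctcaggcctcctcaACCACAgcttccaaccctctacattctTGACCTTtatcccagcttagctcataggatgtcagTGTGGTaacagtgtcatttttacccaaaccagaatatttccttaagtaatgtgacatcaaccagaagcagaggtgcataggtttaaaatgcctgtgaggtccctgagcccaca
Gzmf, chr14:56211408-56211657, minus strand: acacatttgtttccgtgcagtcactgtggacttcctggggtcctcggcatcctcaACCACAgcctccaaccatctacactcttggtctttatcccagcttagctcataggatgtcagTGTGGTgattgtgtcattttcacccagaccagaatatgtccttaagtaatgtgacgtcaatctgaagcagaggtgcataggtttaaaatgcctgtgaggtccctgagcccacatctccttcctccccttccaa

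These letters are a description and not binding sites. The Il2 window held 4 matches, of NFAT and TCF/LEF, the Havcr2 window 1 AP-1 and 1 RUNX match, and the Gzmb window 1 AP-1 and 2 RUNX matches. Other windows in called peaks are not shown. Those of Jun and Slamf6, in peaks higher in Tprog like that of Il2, held no match. In peaks lower in Tprog, the Prf1 window held 1 RUNX match, the Ccl3 window 1 RUNX and 1 NFAT, and an Entpd1 window 1 NFAT. The 4 neighbouring granzyme genes resemble each other closely: after alignment Gzmd and Gzme shared 94.8% of positions, Gzmc shared 81.3% with Gzmd and 81.8% with Gzme, and Gzmf shared 71.5% to 75.4% with those 3, whereas Gzmb shared 47.3% to 52.2% with the other 4. How reads that fit more than 1 of these copies were placed is not given in the sources used here, so values among Gzmc to Gzmf are uncertain to that extent.

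Across the genome 10103 of 53868 peaks (18.8%) differed between the states at an adjusted p under 0.05 (limma on log2 of the value plus 1, Benjamini-Hochberg over all peaks). Of these 4514 (8.38% of peaks) were higher in Tprog and 5589 (10.4%) lower, and 4570 differed by at least 1 on the log2 scale. The 2 libraries of one state did not overlap the 2 of the other in 10077 of the called peaks. That count is no added support, since a call already favours separated libraries, and it was not taken over all peaks. The median difference over all peaks was 0.01 on the log2 scale. Distal sites carried most of the change: 10.6% of the 10251 peaks that hold a promoter window were called, against 20.7% of the 43617 others. A bulk measurement cannot tell a change in the share of cells with an open site from a change in each cell.

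The count of called peaks was 6331 without Tprog replicate 1, 6283 without Tterm replicate 1 and 6467 without Tterm replicate 2, where the remaining library of that state is assumed to vary like the other groups. The libraries are pools of several mice, and p-values rest on the spread between libraries of 1 group, estimated over all 48 libraries. They do not measure the spread between single mice. How the pools of 1 state were split is not told by the library names, which give only a replicate number.

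Sites of the progenitor programme were more open in Tprog, led by Tcf7, Id3 and Cxcr5. Of 178 peaks assigned to 11 progenitor transcription factors 41 (23%) were higher and 12 (6.74%) lower in Tprog, with a median difference of 0.23, against 8.38%, 10.4% and 0.01 for all peaks. Of 99 peaks at 10 progenitor receptors and ligands 45 (45.5%) were higher and 4 (4.04%) lower, with a median of 0.47, and 6 of the 45 were peaks of the sort gene Slamf6. These sums held members that went the other way, described after the genes that led.

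Tcf7, which encodes TCF-1, had 6 of 12 peaks higher and none lower. Its promoter peak (chr11:52281225-52284085) measured 425.1 and 374.6 in the Tprog libraries and 162.9 and 123 in the Tterm libraries. Both Tprog values lay above both Tterm values, and the log2 difference was 1.49 (SE 0.19, adjusted p = 8.74e-10). A stronger separation lay inside the gene at chr11:52273512-52275959, with 563 and 623.4 in Tprog against 86.17 and 70.02 in Tterm. There the log2 difference was 2.91 (SE 0.20, adjusted p = 1.88e-22), and Ttran (190.8 and 218.6) and Ttad (226.4 and 214) lay between the states without overlapping either. The peak of the gene with the highest mean over all libraries, chr11:52299318-52300198, differed less, by 0.38, and lost its call without Tprog replicate 1.

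All 7 peaks of Id3, an inhibitor of E proteins that marks memory-like CD8 T cells, were higher in Tprog, by 0.49 to 2.71. At its promoter (chr4:136143607-136144833) the Tprog libraries had 463.5 and 435.5 and the Tterm libraries 122.4 and 178.3. The groups did not overlap, and the log2 difference was 1.60 (SE 0.18, adjusted p = 2.66e-11). Its close relative Id2, which is tied to effector differentiation, went the other way, with 7 of 9 peaks lower in Tprog and none higher.

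Of the receptors and ligands, Cxcr5, the follicle-homing receptor of progenitor cells, had 7 of 9 peaks higher. Its peak at chr9:44526245-44527374 gave 952.5 and 979.7 in Tprog and 475.7 and 476.3 in Tterm. That was 1.02 higher on the log2 scale (SE 0.11, adjusted p = 8.92e-13). Ccr7, a lymph node homing receptor, had 8 of 11 peaks higher. Xcl1, a chemokine that attracts cross-presenting dendritic cells, had 8 of 18 peaks higher, and one of them was among the 12 largest rises. That peak (chr1:164881843-164882923, 48721 bases from the gene) had 122.3 and 99.49 in Tprog and 5.17 and 3.26 in Tterm, a log2 difference of 4.44 (SE 0.59, adjusted p = 4.39e-09). Tnfsf8 (CD30 ligand) had 6 of 11 peaks higher and S1pr1 (the receptor for egress from tissue) 6 of 15. The sort gene Slamf6 had 6 of 6, with 318.4 and 325.9 against 169.8 and 173.4 at its promoter (chr1:171917325-171918757).

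The other direction within these lists came mainly from Lef1, Myb and Cd28, with 1 peak of Il7r. Lef1, the partner of TCF-1, had 5 of 16 peaks lower in Tprog and none higher. Its strongest peak, at the promoter, differed by -0.27 (SE 0.09, adjusted p = 0.0338). That call was lost in 6 of the 13 alternatives, quantile normalisation and thinning among them. At chr3:131056970-131057929, 52368 bases from the gene, Tprog had 513.2 and 401 and Tterm 895.3 and 876.1. The Tterm libraries were higher without overlap, by 0.96 on the log2 scale (Tprog minus Tterm -0.96, SE 0.12, adjusted p = 3.77e-10). Myb, needed for self-renewal of progenitor cells, had 4 of 14 peaks lower and 1 higher, its strongest (43050 bases from the gene) with 1160 and 1100 in Tprog and 1611 and 1515 in Tterm. Cd28, the costimulatory receptor, had 3 of 18 peaks lower and 2 higher. Il7r, the receptor for interleukin 7, had 1 of 5 peaks lower (315.6 and 329.9 against 461 and 442.9), a call that was lost without Tprog replicate 1 or Tterm replicate 1. Foxp1 (13 higher and 1 lower of 46 peaks) and Bach2 (9 and 1 of 35), repressors of effector differentiation, followed the list, and no peak of Bcl6 was called.

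**Figure D1:**
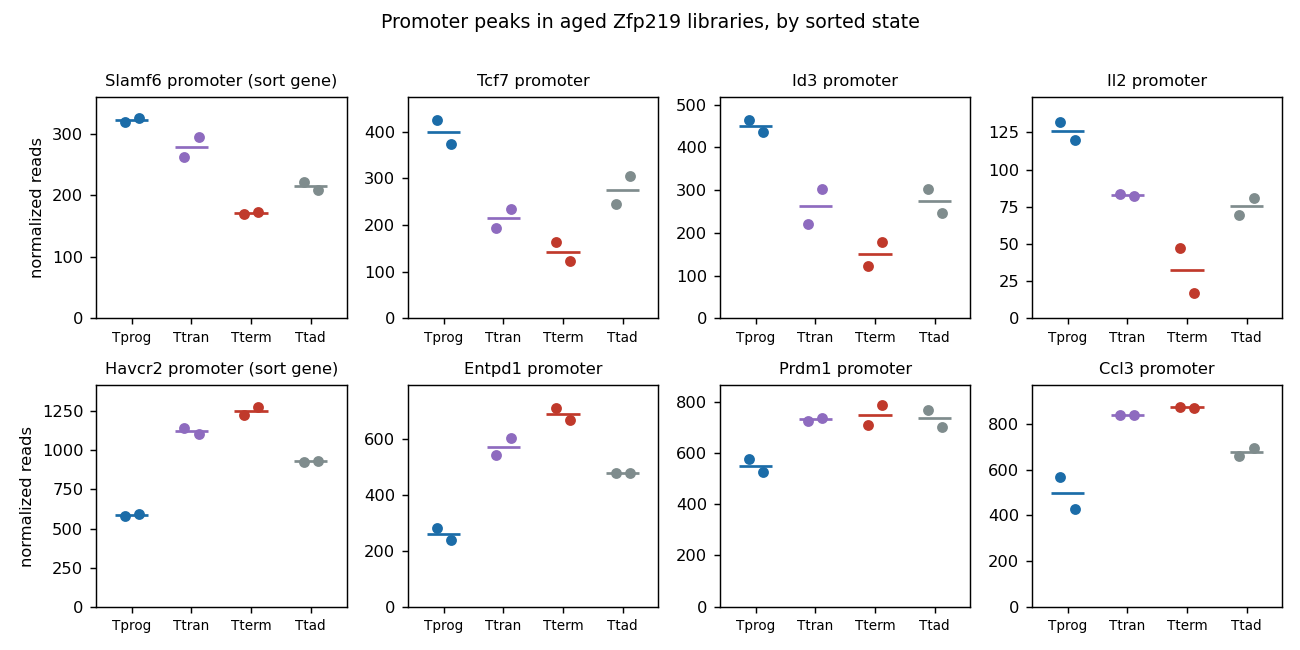
Normalised read counts in the promoter peaks of 8 genes in the aged-host Zfp219 libraries, by sorted state (x axis: Tprog, Ttran, Tterm, Ttad). Dots are libraries (2 per state) and bars their mean, on axes that start at 0; Slamf6, Tcf7, Id3 and Il2 are highest in Tprog, and Havcr2, Entpd1, Prdm1 and Ccl3 lowest.

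Il2, the growth factor that progenitor cells still make, stood with the progenitor genes although it was listed as an effector molecule, since 5 of its 6 peaks were higher in Tprog. Its promoter peak (chr3:37125704-37126777) had 132.2 and 119.8 in Tprog and 47.39 and 17.1 in Tterm. The log2 difference was 2.1 (SE 0.35, adjusted p = 1.54e-06), and the Tterm pair itself was widely spaced. A stronger peak 47033 bases away (chr3:37172987-37175105) had 572.9 and 615.2 against 355.9 and 272.8, a log2 difference of 0.93 (SE 0.13, adjusted p = 1.97e-08).

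The factors tied to terminal exhaustion did not move as one group. Of 222 peaks at 15 genes 50 (22.5%) were lower in Tprog and 26 (11.7%) higher, with a median of -0.06. Prdm1, which encodes the repressor Blimp-1, accounted for 16 of the lower peaks among its 22 and had none higher. Inside the gene, at chr10:44449764-44451102, the values were 200.5 and 211.2 in Tprog and 548.9 and 516.2 in Tterm. The difference there was -1.37 (SE 0.14, adjusted p = 7.34e-14), while the promoter peak (chr10:44457961-44459590) differed by -0.44 (SE 0.11, adjusted p = 0.00178) with 575.8 and 524.9 against 710 and 786.5. Rbpj, the DNA-binding effector of Notch signalling, had 9 of 33 peaks lower and Zeb2, a driver of effector differentiation, 8 of 21 with 1 higher.

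Tox, a chromatin regulator needed to form exhausted cells of either kind, went against its list: 10 of its 27 peaks were higher in Tprog and none lower. At chr4:6934488-6935792 Tprog had 294.3 and 292.4 and Tterm 85.31 and 133.5. The log2 difference was 1.45 (SE 0.20, adjusted p = 1.5e-08). Nr4a1 (3 of 6 peaks), Nr4a2 (1 of 2) and Tox2 (2 of 7) also had peaks higher in Tprog and none lower, whereas Nr4a3 had 3 higher and 2 lower of 15. The Nr4a2 call was lost after quantile normalisation, after thinning and without any 1 of the 4 libraries. That of the strongest Nr4a1 peak was lost after thinning and without Tprog replicate 1 or either Tterm library. Tbx21 (T-bet) had 1 of 9 peaks lower, Eomes 2 of 14 higher and Batf none of 8 called. At the strongest Tbx21 peak the values were 1028 and 1115 in Tprog against 1112 and 1093 in Tterm, which overlap.

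Inhibitory receptor sites opened in Tterm at some genes and stayed within the spread at others. Over 69 peaks at 10 genes 24 (34.8%) were lower in Tprog and 5 (7.25%) higher, with a median of -0.21, and 14 of the 24 belonged to Entpd1 and the sort gene Havcr2. Entpd1 encodes CD39, an enzyme that degrades extracellular ATP and a marker of terminal exhaustion, and had 10 of 12 peaks lower. Of its 2 promoter windows, one lies in a peak that was counted for the neighbouring gene Tctn3 (chr19:40611648-40612684) and was not called (0.11, adjusted p = 0.554). At the other (chr19:40659633-40662398) Tprog had 280.1 and 237.6, Tterm 709.2 and 668.5, Ttran 540.8 and 601.2 and Ttad 478.2 and 478.3. All 6 other libraries exceeded both Tprog libraries, and Tprog minus Tterm was -1.41 (SE 0.12, adjusted p = 2.22e-17). Havcr2 had 4 of 5 peaks lower, with 577.2 and 590.9 against 1228 and 1275 at its promoter (chr11:46452770-46455391).

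Cd244a, which encodes the receptor 2B4, had 3 of 4 peaks lower, the strongest with 66.82 and 63.96 in Tprog and 198.2 and 171 in Tterm (-1.48, SE 0.22, adjusted p = 9.04e-08). Pdcd1, the gene of PD-1, had 1 of 9 peaks lower. That peak had 2235 and 2359 in Tprog and 2725 and 2578 in Tterm, a difference of -0.21 (SE 0.06, adjusted p = 0.0033) whose call was lost without Tprog replicate 1 or Tterm replicate 1. No peak of Lag3, Cd38 or Cd160 was called, and Tigit (1 higher and 3 lower of 11) and Ctla4 (2 and 3 of 12) were mixed. Cd101, a marker of terminal exhaustion, had 2 of 6 peaks higher in Tprog and none lower.

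Effector genes showed the widest change of the lists described here. Over 93 peaks at 13 genes 50 (53.8%) were lower in Tprog and 7 (7.53%) higher, 5 of the latter at Il2, with a median of -0.58. Perforin (Prf1), which forms pores in target cells, had 4 of 6 peaks lower. Its strongest peak had 1034 and 1161 in Tprog and 1574 and 1668 in Tterm (-0.56, SE 0.08, adjusted p = 4.26e-08). Interferon gamma (Ifng) had 17 of 27 peaks lower. Among genes with no peak called higher this was the most, together with Prex1 (17 of 32), a guanine nucleotide exchange factor for Rac. At chr10:118482165-118482957 the Ifng values were 61.13 and 54.82 in Tprog, 131.6 and 151.7 in Ttran and 270.6 and 306.1 in Tterm. That is -2.29 between Tprog and Tterm (SE 0.23, adjusted p = 2.6e-13). The Ifng promoter peak itself was not called (adjusted p = 0.0699).

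The chemokine genes on chromosome 11, whose products attract immune cells, changed together. All 4 peaks of Ccl3, all 4 of Ccl4 and 6 of 7 of Ccl5 were lower in Tprog. At chr11:83628444-83630271, 17572 bases from Ccl3, Tprog had 486.2 and 443.6 and Tterm 1448 and 1451. The Tprog libraries were lower by 1.64 on the log2 scale (Tprog minus Tterm -1.64, SE 0.08, adjusted p = 7.35e-31), and Ttran (1134 and 1170) and Ttad (1093 and 1069) lay between. The Ccl3 promoter peak had 568.7 and 430.5 in Tprog against 876.4 and 870.4 in Tterm. Their neighbours Ccl9 (5 of 6) and Ccl6 (2 of 4) had lower peaks too. Both were in no list, and these counts were added after values were seen. A Ccl9 peak was also named by the rule for the largest changes.

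The steepest falls lay in the granzyme cluster on chromosome 14. Gzmb, the main cytotoxic granzyme, had 6 of 9 peaks lower, with 602.8 and 610.1 in Tprog and 1000 and 1023 in Tterm at its promoter (chr14:56261701-56263110). The difference was -0.74 (SE 0.10, adjusted p = 1.63e-09). The contrast was wider at its other members. The Gzmc promoter peak (chr14:56234361-56235285) had 27.01 and 43.66 against 143 and 110.7, a difference of -1.84 (SE 0.31, adjusted p = 1.62e-06). The Gzme promoter peak (chr14:56120101-56121340) had 18.48 and 17.26 against 209.4 and 202.7, and the Gzmd one (chr14:56132391-56133267) 7.11 and 6.09 against 107.7 and 106.7. Their differences were -3.46 (SE 0.27, adjusted p = 3.09e-19) and -3.83 (SE 0.51, adjusted p = 4.33e-09).

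At the Gzmf promoter peak (chr14:56210967-56211902) the Tprog libraries held 0 and 2 reads, which is 0 and 2.03 normalised, and the Tterm libraries 94.79 and 105. Against a floor of 3 reads per library, or 3.55 normalised, Tterm was at least 28.1-fold higher. All 8 libraries of the 4 states kept 1 order at this peak: Tprog below Ttran (23.47 and 30.18), Ttran below Ttad (41.54 and 36.66) and Ttad below Tterm. Gzmd, Gzme and Gzmf were in no list and were named by the rule for the largest changes. In the same cluster all 3 Gzmn peaks were lower, while Gzma (0 of 2), on chromosome 13, had none called. Of 4 peaks at Gzmk, the granzyme of memory-like effector cells and a neighbour of Gzma, 3 were lower in Tprog.

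**Figure D2:**
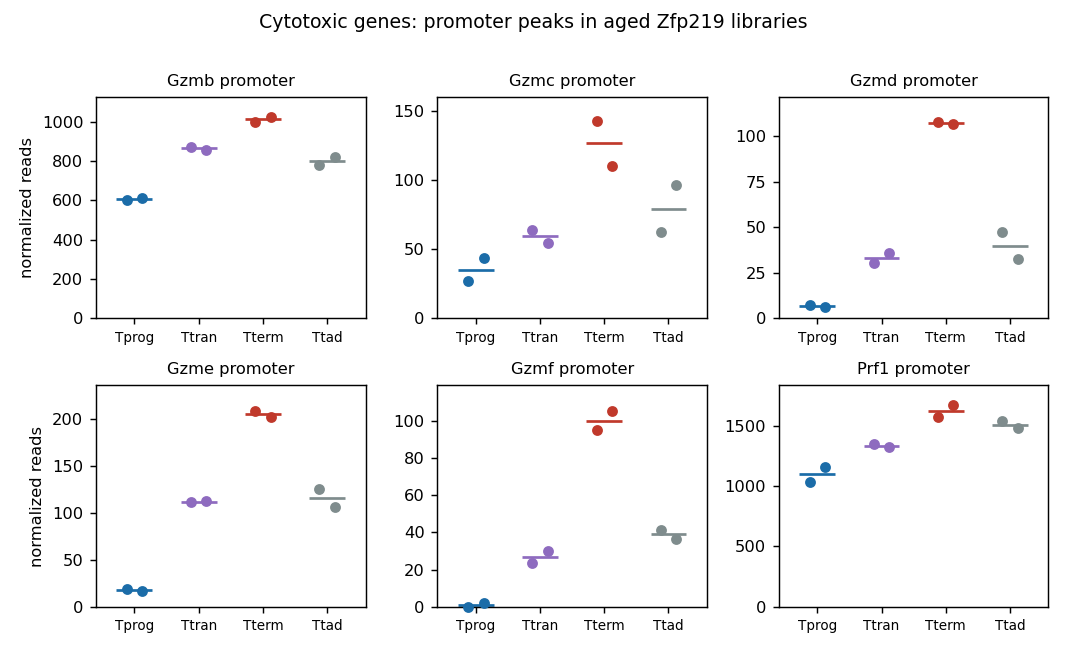
Normalised read counts in the promoter peaks of Gzmb, Gzmc, Gzmd, Gzme, Gzmf and Prf1 in the aged-host Zfp219 libraries, by sorted state on the x axis. Dots are libraries (2 per state) and bars their mean; Tprog is lowest and Tterm highest in each panel, with 0 and 2.03 for Gzmf in Tprog.

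AP-1 factors, which couple T cell receptor signals to transcription, had 13 of 56 peaks (23.2%) higher in Tprog and 2 (3.57%) lower, with a median of 0.10. The higher peaks lay at Fosb (4 of 6), Jun (3 of 8), Fos (3 of 10), Junb (1 of 1), Fosl2 (1 of 7) and Batf3 (1 of 9). The Junb call was lost after quantile normalisation, after thinning and without Tprog replicate 2 or either Tterm library. The Jun promoter peak (chr4:95050137-95053487) had 2821 and 2716 in Tprog and 2157 and 2102 in Tterm. The log2 difference was 0.38 (SE 0.06, adjusted p = 9.03e-07), with Ttran and Ttad between 2253 and 2429. A peak 44555 bases from Jun (chr4:95096777-95097213) had 61.13 and 78.17 against 5.17 and 10.59, a log2 difference of 3.05 (SE 0.47, adjusted p = 2.74e-07).

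Residency and homing genes were mixed, with 14 of 100 peaks (14%) higher and 19 (19%) lower and a median of -0.05. The integrin genes split: Itgb1 had 7 of 18 peaks higher, and the Itga4 promoter peak (chr2:79254685-79256306) had 745 and 763.5 in Tprog against 462.7 and 450.3 in Tterm (0.72, SE 0.10, adjusted p = 2.79e-08). Itga1, the collagen-binding chain of resident cells, had 2 of 11 lower, the strongest with 354 and 378.7 against 670.4 and 556.1. Runx3 (6 of 23) and Klrg1 (6 of 9) had lower peaks, and Cd69 had 4 of 12 higher.

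Cytokine receptor genes had 23 of 107 peaks (21.5%) lower and 8 (7.48%) higher, with a median of -0.11. The interleukin 6 receptor gene Il6ra supplied 4 of the 8, its strongest peak (chr3:89870589-89872632) with 679.6 and 679.2 in Tprog against 349.9 and 364.8 in Tterm (0.93, SE 0.12, adjusted p = 3.96e-09). Lower peaks lay at Ifngr1 (4 of 17), Il2rb (3 of 5), Il18r1 (2 of 6), Il18rap (2 of 6) and Tgfbr2 (2 of 4). Glycolysis and hypoxia genes stayed near the background, with 4 of 46 peaks (8.7%) higher and 5 (10.9%) lower and a median of 0.02.

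**Figure D3:**
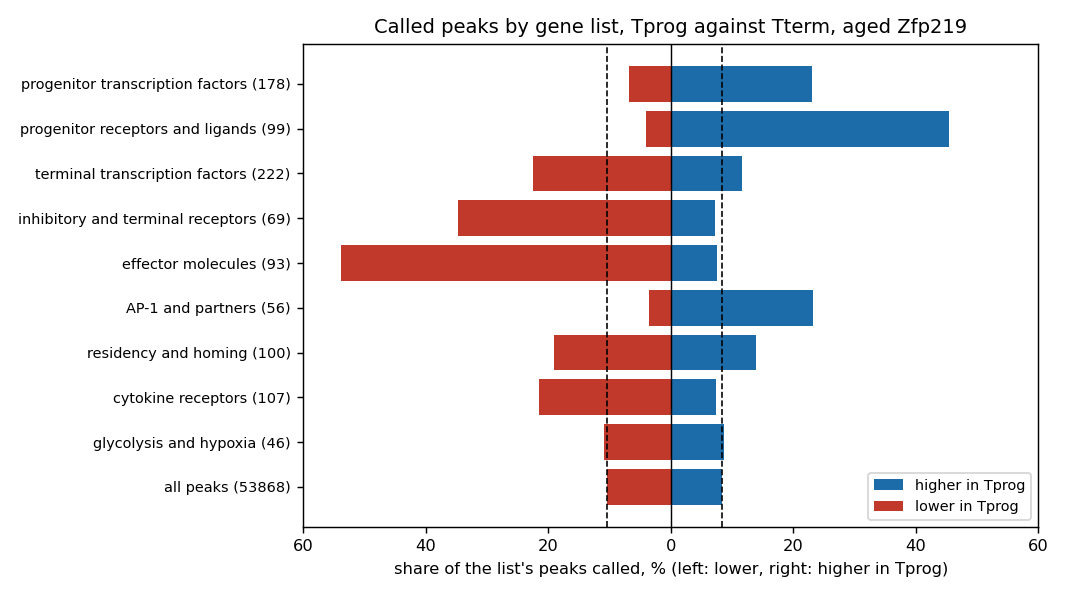
Percent of each gene list's peaks called higher (right) or lower (left) in Tprog than in Tterm in the aged-host Zfp219 libraries. Dashed lines mark the shares over all peaks, 8.38% higher and 10.4% lower; progenitor receptors reach 45.5% higher and effector molecules 53.8% lower.

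The targeted gene gave no check of the edit. Zfp219 had 4 peaks, none called between the states. Its promoter peak (chr14:52019226-52020740) had 1092 and 1036 in Tprog and 1250 and 1121 in Tterm, a difference of -0.15 (SE 0.09, adjusted p = 0.225). The OTC libraries had 990.8 and 1095 in Tprog and 999.1 and 1058 in Tterm, so that the Tterm libraries of the 2 guides did not overlap. An edit of a few bases need not change accessibility. Dusp5, a phosphatase gene that was the other target of the series, had 11 of 17 peaks lower in Tprog of the Zfp219 cells.

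Genes outside the lists were taken by fixed rules of size. The largest rise was a peak with no gene within 100 kb, chr3:38282793-38284121, at 211.8 and 170.6 in Tprog and 0 and 4.89 in Tterm, a fitted difference of 6.30 (SE 0.57, adjusted p = 1.27e-15). A peak in Ift80, an intraflagellar transport gene, had 152.1 and 175.6 against 4.31 and 1.63 (5.46, SE 0.65, adjusted p = 7.18e-11). Mob3b (4.93), Fars2 (4.04), Asap1 (4.03), Pter (3.94), Unc80 (3.82), Slc6a19 (3.80) and Rapgef4 (3.50) followed among the log2 rises, in each case at a site where both Tterm libraries were at or below 13.8 normalised reads. Since values that low add to the pseudocount, those folds are fitted values and no bounds.

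Among the falls outside the granzymes, a peak 185 bases from Nsmce1 (chr7:125466616-125467459) had 7.11 and 16.24 in Tprog and 138.7 and 105.8 in Tterm (-3.37, SE 0.32, adjusted p = 6.45e-15). Peaks at Arhgef2 (-3.36), Gcnt4 (-3.27), Sytl2 (-3.17), Hdac8 (-3.14), Sik1 (-3.03), Ccl9 (-3.00), Olfm1 (-3.00) and Gsap (-3.00) completed the 12 largest. Sytl2 encodes a synaptotagmin-like protein that docks secretory vesicles. The 2 Tprog libraries of the Ccl9 peak differed widely from each other (8.53 and 44.67) and still lay below both Tterm libraries (175.8 and 156.3).

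Counting peaks per gene, 62 of the 15029 genes with a peak had at least 5 called peaks that were all higher in Tprog. Another 132 had at least 5 that were all lower, and 143 had at least 5 in both directions together. With 18.8% of all peaks called, a gene with many peaks reaches 5 calls more easily, and no allowance was made for this. Besides Tox, the first group was led by Arhgef3 (12 of 36 peaks), Dapl1 (11 of 14), Fam53b (11 of 15), Lrig1 (10 of 11), Cd83 (10 of 14), Sfi1 (10 of 18) and Rora (10 of 30). The Dapl1 promoter peak (chr2:59484518-59484967) had 51.2 and 59.9 in Tprog and 7.76 and 4.89 in Tterm, and the median over its 14 peaks was 1.74. Lrig1, a feedback inhibitor of growth factor receptors, had a median of 1.82. The second group held Ifng, Prex1, Prdm1, Rgs3 (14 of 31), Auh (12 of 19), Rgs1 (12 of 21), Dusp5 and Tmem163 (11 of 20). Rgs1 and Rgs3 encode regulators of G protein signalling.

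Promoter windows (300 bases each, 250 before and 50 after the start) offered a description of sequence. Of 751 windows in peaks higher in Tprog 5.19% held the AP-1 letters, as did 11.7% of 658 windows in lower peaks, 4.75% of 12265 in uncalled peaks and 7.81% of all 32851 windows. The RUNX letters were in 15%, 21.6%, 12.4% and 16.8% in that order, and the TCF/LEF letters in 9.19%, 7.29%, 6.41% and 10.6%. Shares differed little between higher and lower peaks for NFAT (19.7% and 19.1%) and KLF/SP (CACCC, 65.9% and 65.8%). Windows of one gene overlap and share sequence, and the distal peaks, where most calls lay, could not be searched.

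The Ttran and Ttad sorts were placed on the same sites. Ttran differed from Tprog at 6407 peaks (11.9%) and from Tterm at 604 (1.12%), and Ttad from Tprog at 4119 (7.65%) and from Tterm at 942 (1.75%). The 6407 were 3484 higher in Ttran (6.47%) and 2923 lower (5.43%). By list, Ttran was higher than Tprog at 39 of 93 effector peaks, 36 of 222 terminal factor peaks and 19 of 69 inhibitory receptor peaks. It was lower than Tprog at 40 of 178 progenitor factor peaks and 27 of 99 progenitor receptor peaks. The same Tprog libraries enter these contrasts and the one with Tterm, so they are not independent of it. Single sites placed Ttran between the poles: at the intragenic Tcf7 peak Ttran exceeded Tterm by 1.38 (SE 0.20, adjusted p = 2.22e-06) and was below Tprog by 1.53 (Ttran minus Tprog -1.53, SE 0.20, adjusted p = 3.53e-09), and at the Id3 promoter the corresponding values were 0.80 (adjusted p = 0.00844) and -0.79 (adjusted p = 0.0011). At the Entpd1 and Gzmb promoters Ttran differed from Tprog (1.14 and 0.51, adjusted p = 1.67e-12 and 4.27e-05) and not detectably from Tterm (-0.27 and -0.23, adjusted p = 0.361 and 0.333). Not every site had Ttran between the poles. At the Lef1 promoter peak Ttran (901 and 940.5) lay above both Tprog (689.5 and 669) and Tterm (821.2 and 811.8). Ttran was not called against Tterm there (adjusted p = 0.552). The Thy1 peak described below is another such site.

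A state score placed each library on an axis set by the contrast between OTC cells. The score is the mean log2 value over 2746 peaks higher in aged OTC Tprog minus the mean over 2157 peaks higher in aged OTC Tterm, each called and with a log2 difference of at least 1 in size. The OTC means gave these differences, while all 48 libraries, those with the Zfp219 guide included, entered the estimate of the spread behind the calls. Zfp219 Tprog libraries scored 0.85 and 0.83, Ttran -0.96 and -0.96, Ttad -0.64 and -0.66 and Tterm -1.63 and -1.65. Tprog minus Tterm was 2.48 (1.64 over all called OTC peaks, with no limit on size), and the exact permutation test over the 4 libraries gave its smallest possible p, 0.333 (two-sided, 6 arrangements), which cannot reach 0.05. The Dusp5 libraries differed by 2.44 (1.05 and 1.05 against -1.36 and -1.41). The OTC Tprog and Tterm libraries scored 1.34, 1.26, -2.06 and -2.02, but these chose the peaks and are not comparable with the others.

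**Figure D4:**
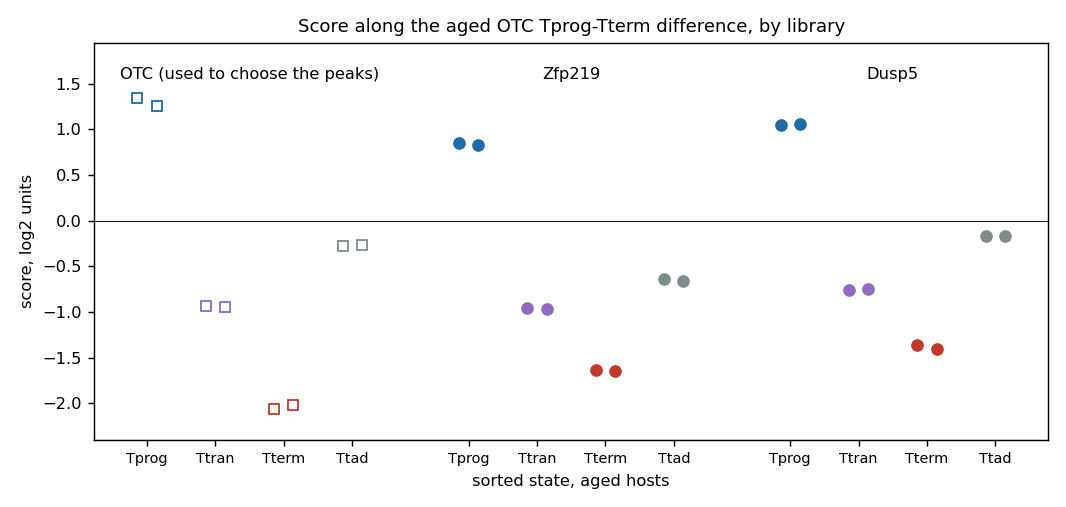
State score (mean log2 value over peaks higher in aged OTC Tprog minus that over peaks higher in aged OTC Tterm) of each aged-host library, by sorted state on the x axis and guide (OTC, Zfp219, Dusp5). Open squares are OTC libraries, whose Tprog and Tterm set the axis; Zfp219 libraries run from 0.85 in Tprog to -1.65 in Tterm.

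The same contrast in cells with the control guide asked how far the difference between states depends on Zfp219. Of the 10103 peaks called in Zfp219 cells 6055 (59.9%) were called in the same direction in OTC cells, which is 56% of the 10806 called there (20.1% of peaks), and 59 were called in opposite directions. The log2 differences correlated at r = 0.678 across 53868 peaks that share libraries within each contrast and none between them. The corresponding figures were 5781 peaks (57.2% and 46.9%), 148 opposite and r = 0.499 for Dusp5 cells (22.9% of peaks called), and 6634 peaks (65.7% and 45.9%), 17 opposite and r = 0.685 for young-host Zfp219 cells (26.8% called). At the 5569 peaks (10.3%) higher in Dusp5 Tprog, where Zfp219 libraries entered only the estimate of the spread, the Zfp219 difference was positive in 82.9%, with a median of 0.44 (0.53 in OTC). At the 6767 lower ones (12.6%) it was negative in 86.4%, with a median of -0.58 (-0.60 in OTC).

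**Figure D5:**
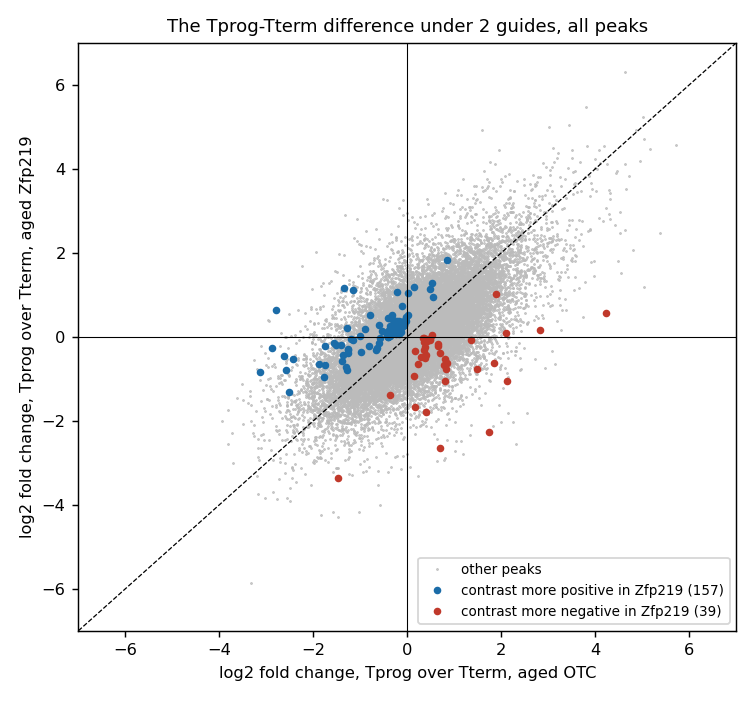
Tprog minus Tterm log2 difference of each peak in aged OTC cells (x axis) and aged Zfp219 cells (y axis). Coloured points are the 157 peaks whose difference was more positive and the 39 whose difference was more negative with the Zfp219 guide; r across all 53868 peaks is 0.678.

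The test of the difference itself, an interaction contrast in the same fit, called 196 peaks (0.364%) between Zfp219 and OTC cells. In 157 (0.291%) Tprog minus Tterm was more positive with the Zfp219 guide and in 39 (0.0724%) more negative. Quantile normalisation, which forces all libraries to one distribution, gave 73 peaks, of which 63 were among the 196 in the same direction and 37 were more positive, so the split moved from 80.1% to 50.7% positive. The count was 513 with DESeq2 and 319 in a fit of the compared groups alone. It was 72 without Zfp219 Tprog replicate 1, 85 and 93 without Tterm replicates 1 and 2, 98 without OTC Tprog replicate 1, and 84 and 129 without OTC Tterm replicates 1 and 2. The 157 peaks were strong sites, with a median level of 1469 normalised reads against 90.8 over all peaks, and 55.4% of them held a promoter window against 19% of all peaks. Their median difference was 0.21 in Zfp219 cells and -0.28 in OTC cells, a gap that the choice of these peaks builds in.

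The largest of these differences was at Thy1, which encodes the T cell surface protein CD90. Of the 14 Thy1 peaks 6 were lower in Zfp219 Tprog than in Zfp219 Tterm and 1, the peak given next, was higher, with a median of -0.33. The peak inside the gene (chr9:44046603-44047436) had 190.5 and 219.3 in Zfp219 Tprog and 135.3 and 125.4 in Tterm, but 134.7 and 122.4 in OTC Tprog and 958.8 and 829.4 in OTC Tterm. Zfp219 Ttran libraries stood far above the other Zfp219 states at this peak, at 3158 and 3153, and Ttad had 567.2 and 667.6. The difference of differences was 3.43 (SE 0.20, adjusted p = 1.62e-25) and was called in all 17 alternatives. Dusp5 cells had 177.2 and 222.4 in Tprog and 129.4 and 116.5 in Tterm, and the contrast between states differed from theirs by -0.04 (SE 0.20, adjusted p = 0.957). The OTC Tterm libraries thus stood above both other guides here. What moves this site between sorts was not tested.

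Itga4 was the other difference named by the rules that was called in every alternative. With the Zfp219 guide its promoter peak was higher in Tprog (values above), whereas OTC cells had 571.8 and 633.5 in Tprog and 648.3 and 656.2 in Tterm. The difference of differences was 0.84 (SE 0.15, adjusted p = 0.000423). It was 0.65 against Dusp5 cells (adjusted p = 0.0047). Jun was more positive by 0.41 (SE 0.09, adjusted p = 0.0072), with 2569 and 2484 in OTC Tprog and 2572 and 2584 in OTC Tterm, but by 0.20 under quantile normalisation (adjusted p = 0.573). Runx3 behaved alike, at 0.43 (adjusted p = 0.00329) and 0.19 (adjusted p = 0.573), and Il21r had 0.55 (adjusted p = 0.01) and 0.45 (adjusted p = 0.121). None of the 178 progenitor factor peaks, 99 progenitor receptor peaks, 222 terminal factor peaks, 69 inhibitory receptor peaks or 93 effector peaks was called in this test, against 196 of all 53868. That does not show that the guides act alike there.

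Among the smaller sites with a more positive difference, Me1, the gene of malic enzyme, had 85.3 and 70.05 in Zfp219 Tprog against 137.9 and 131.1 in Tterm. In OTC cells it had 20.38 and 20.41 against 137.3 and 118.2, so the gap between states was smaller with the Zfp219 guide, by 1.79 (SE 0.39, adjusted p = 0.00827). In the negative direction, a peak near Cited2 had 35.54 and 40.61 in Zfp219 Tprog against 121.5 and 123.8 in Tterm. OTC cells had 62.28 and 58.56 against 45.76 and 63.23, and the difference of differences was -1.83 (SE 0.39, adjusted p = 0.00705). Cited2 encodes a coactivator of hypoxia and cytokine responses.

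Against Dusp5 cells 1075 peaks (2%) differed, 597 (1.11%) more positive and 478 (0.887%) more negative. The more positive share, 55.5%, was 46.3% without the weakest peaks and 41.5% without Dusp5 Tterm replicate 1 (1416 peaks). The count was 532 without Zfp219 Tprog replicate 1, 517 and 510 without Tterm replicates 1 and 2, 510 without Dusp5 Tprog replicate 1 and 465 without Dusp5 Tterm replicate 2. The largest lay in wide peaks at Flg2 (chr3:93206909-93215382), where Zfp219 cells had 125.1 and 124.9 in Tprog and 36.19 and 33.38 in Tterm. Dusp5 cells showed the reverse, 30.27 and 31.52 against 180.5 and 249.4, a difference of differences of 4.56 (SE 0.52, adjusted p = 9.95e-11). The 597 peaks had a median of 0.69 in Zfp219 cells and -1.47 in Dusp5 cells, a gap that their choice by this contrast builds in. Dusp5 Tterm replicate 2 was the shallowest library of the series (5638413 reads in peaks), and the Dusp5 Tterm pair correlated at r = 0.944. The single largest peak held 1.86% and 1.84% of their reads, against 0.68% and 0.67% in Zfp219 Tterm. With all libraries thinned to equal depth 523 peaks differed. The part of the other library properties was not tested.

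Against young-host Zfp219 cells 283 peaks (0.525%) differed, 115 (0.213%) more positive and 168 (0.312%) more negative in aged hosts. The more positive share, 40.6%, was 52.9% and 52.8% without aged Tterm replicates 1 and 2, and 55.7% and 54.6% without young Tprog replicates 1 and 2. The count was 988 with DESeq2. It was 105 and 186 without aged Tprog replicates 1 and 2, 102 and 89 without aged Tterm replicates 1 and 2, 141 without young Tprog replicate 2, and 172 and 150 without young Tterm replicates 1 and 3. Of the 178 progenitor factor peaks 10 were among the 168, and none among the 115. At Id3 (chr4:136106423-136107357) aged-host libraries had 652.5 and 744.2 in Tprog and 207.7 and 197.9 in Tterm. Young-host means were 814.6 and 104.7, and the aged difference was smaller by 1.18 (aged minus young -1.18, SE 0.24, adjusted p = 0.00341). The Tcf7 peak at chr11:52268178-52268844 behaved alike, with 244.5 and 229.4 against 33.61 and 33.38 in aged hosts and means of 362.3 and 13.76 in young hosts (-1.91, SE 0.42, adjusted p = 0.0108).

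In the opposite sense, the fall in Tprog at Gzmf was steeper in aged-host than in young-host Zfp219 cells. Young Tprog libraries still had 16.85 and 27.89 where aged ones had 0 and 2.03. The difference of differences was -3.46 (SE 0.70, adjusted p = 0.00327), a fitted value and no bound. Gzme followed with -1.43 (SE 0.36, adjusted p = 0.0367), while Gzmd was not called (-1.17, SE 0.69, adjusted p = 0.575). At the Gzmf peak aged-host Tprog libraries had 15.85 and 15.08 with the OTC guide and 5.61 and 0.88 with the Dusp5 guide. At Gzme aged Zfp219 Tprog had 18.48 and 17.26 and young Zfp219 Tprog 46.58 and 30.54. Aged-host OTC Tprog had 61.14 and 49.68 there, and aged-host Dusp5 Tprog 48.21 and 28.89. The interaction test did not call Gzmf against OTC (adjusted p = 0.115) or Dusp5 cells (adjusted p = 0.356). For Gzme it made no call against OTC cells (adjusted p = 0.264) and a call against Dusp5 cells (-1.29, adjusted p = 0.0485). Hsph1, a heat shock protein gene, was the one named site called in all 18 alternatives. It had 65.4 and 72.08 in aged Tprog and 17.23 and 21.98 in aged Tterm, and 162.6 and 191.2 against 221, 234.3 and 208.5 in young hosts (2.09, SE 0.36, adjusted p = 0.000187). Host age and whatever else separated the young and aged collections cannot be told apart.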

How the data were processed

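Of 48 ATAC-seq libraries of sorted mouse CD8 T cells, 4 formed the main comparison. The submitters' processing notes name Bowtie2 2.2.9, Picard 2.8.0, SAMtools 1.3.1, MACS2 2.1.1, DESeq2 1.28.1 and the build mm10, with no role or order given there, and reads were paired, 50 bases each, per the series' design text. The deposited signal is 1 table of normalised counts over 53868 peaks shared by all libraries. Whether the offset of Tn5 cuts was corrected is not given in the sources used here. Each of the authors' values was a whole multiple of 1 step per library (100% of values, tolerance 1e-06), so whole reads were recovered, and the step matched a median-of-ratios factor.

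Log2(value + 1) was fitted with limma 3.58.1 (R 4.3.3; trend, 1 mean per group, all 48 libraries, Benjamini-Hochberg over all peaks, called at 0.05), and interaction contrasts tested differences between guides or ages. Peaks went to the gene body they overlap or the nearest within 100 kb (34590 in a gene body, 16519 near one, 2759 with none) in RefSeq tables on GRCm38.p6. Exons, introns and UTRs were not annotated. Positions are as deposited. Named are the strongest peak of each listed gene, the 12 largest called changes in each direction (mean of at least 50, no overlap, 1 per gene), the 8 genes with most called peaks in 1 direction, the 5 largest interaction differences each way, and peaks at promoters and loci of listed or leading genes, the last chosen after values were seen. The members and lists were chosen with earlier results of these data known. Alternatives were a pseudocount of 8, no weak peaks, rescaling, quantile normalisation, a fit of the compared groups alone, a replicate term, edgeR 4.0.16 (TMM, quasi-likelihood) and DESeq2 1.42.0 on recovered reads, each library left out and, chosen after seeing the data, thinning to equal depth. The script was tested on simulated data: of 200 peaks changed 2-fold, 56.5% were called for the contrast between states and 40.5% for that against OTC cells. The other simulated peaks were unchanged and gave 10 and 2 false calls. With so few changed peaks, these shares are not the power of the real comparisons. The floor of 3 reads covers counting error only. Tables were made in Python 3.11.15. Some genes counted in the lists are not reported here by name.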

Additional observations from a re-analysis of the deposited data

Results flagged for a closer look

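The Tprog minus Tterm contrast differed from that of the same states in other libraries at 196 peaks against aged OTC cells, 1075 against aged Dusp5 cells and 283 against young-host Zfp219 cells, by the interaction test. Values below are differences of log2 differences, positive where Tprog minus Tterm was higher in aged Zfp219 cells.

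Against OTC cells the 5 largest more positive sites were at Thy1 (3.43), Clic4 (2.17), Arhgap15 (1.90), Me1 (1.79) and Asphd2 (1.53). Thy1 was called in all 17 alternatives and Arhgap15 in 5 of 16. At the Clic4 peak the Zfp219 libraries had 39.81 and 58.88 in Tprog and 56.87 and 78.98 in Tterm, and the OTC libraries 11.32 and 17.74 against 80.62 and 107.2. The more negative ones were at Ifi213 (-2.0), Nsmce1 (-1.89), Gpr89 (-1.85), Cited2 (-1.83) and Sall2 (-1.58), of which Nsmce1 was called in 9 of 16 alternatives and Gpr89 in 7 of 16. Ifi213, an interferon-inducible gene, had 68.24 and 116.8 against 71.52 and 96.89 with the Zfp219 guide, which overlap, and 118.9 and 106.5 against 28.33 and 22.91 with the control guide. Among the strongest peaks of listed genes, Itga4 (0.84), Il21r (0.55), Runx3 (0.43) and Jun (0.41) were flagged.

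Against Dusp5 cells the more positive sites were at Flg2 (4.56), at a site with no gene on chromosome 8 (4.55), near Gm21119 (4.39) and at 2 sites with no gene on chromosome 1 (4.28 and 4.02). At each of these 5 the Dusp5 Tterm libraries were the highest of the 8 libraries of both guides and the Dusp5 Tprog libraries had the lower mean of the 2 Tprog groups. At Gm21119 the Dusp5 values were 54.94 and 64.79 in Tprog and 398.7 and 442.9 in Tterm, and the Zfp219 values 201.9 and 196.9 against 72.38 and 58.62. The more negative sites were at Dapk2 (-2.27), Gm4832 (-2.27), Nkx2-5 (-2.10), Myo18a (-1.92) and Rasgrp1 (-1.83). Listed genes gave Zeb2 (0.67), Itga4 (0.65), Pgk1 (0.58), Il21r (0.57), Il2rb (0.28) and Pdcd1 (-0.39). Il2rb was called in 6 of 17 alternatives and was 0.08 after quantile normalisation (adjusted p = 0.718), Pgk1 was called in 9 of 17 and Rasgrp1 in 8 of 17.

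Against young-host cells the more positive sites were at Mad1l1 (2.31), Hsph1 (2.09), Ramp1 (1.94), Prickle1 (1.91) and Smurf2 (1.83). The more negative ones were at Gzmf (-3.46), H1f8 (-2.21), Gypc (-2.08), a site with no gene on chromosome 10 (-2.03) and Zcchc2 (-1.92). Gypc, which encodes a membrane glycophorin, had 338.4 and 378.7 in aged Tprog against 57.73 and 49.67 in aged Tterm, and 509.4 and 479.4 against 23.7, 17.06 and 11.55 in young hosts. Listed genes gave Il21r (0.60), Batf3 (-0.72) and Id3 (-0.81). Prickle1 and Id3 were each called in 9 of 18 alternatives. Il21r was flagged in all 3 comparisons.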

How the results depend on the processing

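The Tprog against Tterm count of 10103 was 9273 to 11888 under planned changes of test, scaling, filter, pseudocount and fit, and 6283 to 7187 with 1 of the 4 libraries left out (6331 without Tprog replicate 1, 6283 and 6467 without Tterm replicates 1 and 2). The count of 196 against OTC cells was 513 with DESeq2, 319 with the compared groups alone, 73 after quantile normalisation, 95 after thinning and 72 to 184 with 1 library left out. The 1075 against Dusp5 cells were 523 after thinning and 465 to 1416 with 1 library left out, and the 283 against young-host cells were 988 with DESeq2, 156 after thinning and 89 to 314 with 1 left out. With the replicate number as a block the counts were 10055, 194, 1046 and 250, and same-numbered libraries of the 4 aged Zfp219 states did not deviate together (r from -0.011 to 0.0065). The other groups were not checked for this. The state score of 2.48 was 1.64 to 2.49 under its alternatives. Of 68 named peaks called between the states 49 were called in all 13 alternatives, 19 lost the call in at least 1 and none changed sign, and 6 of 58 uncalled ones were called in some. Of 43 named differences between guides or ages 9 were called in all alternatives and none changed sign. Depth limits weak peaks, and 2 libraries per state limit every count; with 1 left out, the lone library is assumed to vary like the other groups.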

Other observations

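The sort gene Slamf6 lies in a run of SLAM family genes on chromosome 1, and its neighbours, chosen after values were seen, had calls in both directions. All 6 Slamf6 peaks were higher in Tprog. At Cd244a, the gene of the SLAM family receptor 2B4, 3 of 4 peaks were lower, its promoter peak with 45.5 and 67 in Tprog and 158 and 132 in Tterm (-1.37, SE 0.25, adjusted p = 9.13e-06 by limma). Slamf1 had 1 of 10 peaks higher and 3 lower, Cd48 (the ligand of 2B4) 1 higher and 1 lower of 5, Slamf7 1 lower of 8, Ly9 1 lower of 5, and none of the 3 Cd84 peaks was called. Over all peaks the shares were 8.38% higher and 10.4% lower, so 1 call among so few peaks does not set a gene apart. Calls in both directions also lay within 1 gene: in Slamf1, chr1:171782119-171783078 had 155 and 153 in Tprog against 75.8 and 74.1 in Tterm (1.03, SE 0.22, adjusted p = 0.000247). At chr1:171788219-171789896, also in the Slamf1 body, the values were 290 and 369 against 435 and 434 (-0.41, SE 0.13, adjusted p = 0.0129).

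Rgs1 and Cd83 were named above by their count of called peaks, and the single peaks given here were chosen after their values were seen. Rgs1, a regulator of G protein signalling, had 12 of 21 peaks lower in Tprog and none higher, the farthest of the 12 at 85976 bases from the gene. At chr1:144319216-144320493 the values were 189 and 162 in Tprog, 261 and 281 in Ttran, 246 and 300 in Ttad and 356 and 401 in Tterm (Tprog minus Tterm -1.10, SE 0.18, adjusted p = 5.87e-07). Cd83, an activation marker, had 10 of 14 peaks higher and none lower. At chr13:43765102-43765924 Tprog had 417 and 373 and Tterm 169 and 160 (1.26, SE 0.20, adjusted p = 5.58e-07). Whether distal peaks act on the nearest gene was not tested.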
